A study of Mus musculus with 7 samples.

Results

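The regions described here are 500 bp stretches of the mouse genome (build mm9) whose share of reporter reads was at least 2-fold below their share of input reads with the pPGK promoter, but not with SCP1 or pR-Ea. Of 30857 bins with at least 50 input reads in each of 3 plasmid inputs, 805 met this rule, which is 2.61% of the bins. They make up 26.7% of the 3019 bins that were low with pPGK. The bins come from a library of DNase hypersensitive sites and were assayed in the mouse T cell line P5424 with CapStarr-seq, a reporter assay on captured DNA. The groups are pPGK PMA_I (the pPGK promoter, with the stimulus PMA_I in the title), pPGK, SCP1 and pR-Ea, each with 1 reporter library. A plasmid input is labelled for pPGK, SCP1 and pR-Ea. All 7 samples carry PMA and ionomycin in their treatment label, so which cells were stimulated was taken from the titles. All groups share the cell line, and the sites were read on plasmids, outside their own chromatin. The series title names short tandem repeats in T cell silencers as its subject, and the question here is which sites were low with 1 promoter and not with others.

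In this kind of assay a DNA fragment is cloned into the transcribed part of a plasmid, downstream of a promoter, and the fragment's own sequence is read from the RNA. A fragment that lowers transcription is therefore rarer among RNA reads than among plasmid reads. Elements that do this are called silencers, and in T cells they are known for keeping lineage genes off in the wrong subset. The pPGK promoter comes from the phosphoglycerate kinase gene, which is active in nearly all cells, while SCP1 (super core promoter 1) is a synthetic core promoter assembled from strong core motifs. What pR-Ea stands for is not spelled out in the labels. Whether an element acts on a given promoter is known to depend on that promoter. PMA activates protein kinase C and ionomycin raises intracellular calcium, and together they mimic signalling through the T cell receptor.

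The deposited tables held 61707100 reporter reads for pPGK PMA_I, 72217277 for pPGK, 54992717 for SCP1 and 51450446 for pR-Ea. Inputs held 30248710 reads for both pPGK libraries, 45278192 for SCP1 and 18940646 for pR-Ea. Reads were used only at positions with a mapping quality score of at least 30, which kept 66.7% of the pPGK reporter reads and 58.9% of its input reads. In the other tables all reporter reads were kept. The pPGK PMA_I table lists the input counts of the pPGK plasmids, but 71.7% of those input reads carried a score of at least 30 there. Activity is the log2 ratio of reporter to input reads, with 1 added to each, after both were scaled to their totals over the 30857 bins. It is relative to the average bin, and no neutral insert set a baseline. With 1 library in each group there is no replicate error and no test, and each value below describes these libraries. The errors given instead are exact 95% counting intervals and a standard error over the distinct 5′ end positions of a bin (SE). Neither covers the variation between cultures. PCR reads without molecular identifiers are not independent molecules, so the intervals cover counting error only.

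The members were chosen by their activity with pPGK, SCP1 and pR-Ea, and these values are given as a description. The median member held 192 reporter reads with pPGK, 370 with SCP1 and 419 with pR-Ea, against 209, 418 and 178 input reads. Median activity was -1.23 with pPGK, -0.60 with SCP1 and -0.36 with pR-Ea. Over all kept bins the medians were 0.07, -0.16 and -0.02. Members thus lay 1.30 below the median bin with pPGK by construction, and they were also 0.44 and 0.34 below it with SCP1 and pR-Ea. SCP1 activity was the lower of the other promoters in 533 members. This was not counted over all kept bins, where the SCP1 median was also the lower (-0.16 against -0.02), so nothing is read from it. Activity above 0 was seen in 111 members with SCP1 (13.8%, against 40.6% of all kept bins) and in 194 with pR-Ea (24.1%, against 48.5%).

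**Figure D1:**
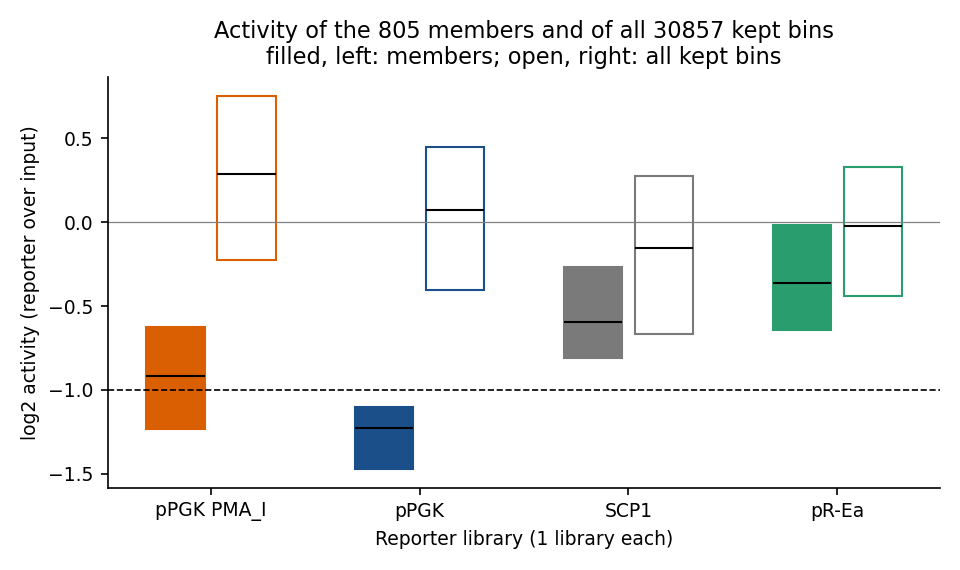
Log2 activity (reporter over input) in each of 4 reporter libraries; boxes span the quartiles and lines mark medians, for the 805 members (filled, left) and all 30857 kept bins (open, right), with the 2-fold limit dashed. The members' median was -0.92 in pPGK PMA_I, -1.23 with pPGK, -0.60 with SCP1 and -0.36 with pR-Ea.

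Most members lay close to the limit. In 425 the pPGK activity was within 0.25 of -1, and in 339 the lower of the SCP1 and pR-Ea activities was within 0.25 of -1, so that 609 members were close on 1 side or the other. The counting interval with pPGK lay wholly below -1 in 362 members, and in 203 of these the SCP1 and pR-Ea intervals also lay wholly above it. The gap, defined as the lower of the SCP1 and pR-Ea activities minus the pPGK activity, had a median of 0.64 and reached 4.03. It was at least 1 in 191 members, of 473 such bins in all (1.53% of kept bins). Taking 1.96 SE on either side, the pPGK value lay below both others in 176 members, of 490 such bins in all (1.59%). Because the rule used these activities, the counts only describe the members. Counting distinct 5′ end positions in place of reads left 134 members, of which 24 were among the 805. Ratios of positions were narrower in all bins, and bins low with pPGK fell to 668 in all, against 3019 by reads.

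The members just inside the limit show what the rule divides. The bin at chr8:89996501-89997000 had 1164 reporter and 976 input reads with pPGK, an activity of -1.0 (SE 0.15), against -0.67 (SE 0.19) with SCP1, and with pR-Ea it was -0.18 (SE 0.07). The next was chr18:65590501-65591000 at -1.0 (SE 0.12), -0.52 (SE 0.16) and -0.82 (SE 0.07). The third, chr14:63796501-63797000, was at -1.0 (SE 0.22), -0.74 (SE 0.18) and -0.79 (SE 0.12). Just outside lay chr11:34123001-34123500 at -1.0 (SE 0.12) with pPGK, -0.13 (SE 0.12) with SCP1, and with pR-Ea it was 0.03 (SE 0.06). That bin had a gap of 0.87, larger than those of the members just inside, which were 0.18 to 0.33. The other bins just outside, chr12:106270501-106271000 and chr6:38162001-38162500, had gaps of 0.06 and 0.11.

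The clearest examples were sought among the 272 members with at least 200 input reads and 20 input positions in each input. The largest gap was 2.28, at chr4:139399501-139400000. This bin held 399 reporter and 708 input reads in pPGK PMA_I, 174 and 671 with pPGK, 246 and 277 with SCP1, and 806 and 560 with pR-Ea. Its activity was -1.93 (SE 0.24) in pPGK PMA_I, -3.20 (SE 0.31) with pPGK, -0.51 (SE 0.39) with SCP1, and with pR-Ea it was -0.91 (SE 0.22). It was low in both pPGK libraries, and the pR-Ea value was within 1 SE of the limit. Among positions listed on 1 strand only, pPGK input was 662 reads on the minus strand and 9 on the plus strand. SCP1 input was 188 and 86, and pR-Ea input 341 and 212. On the minus strand activity was -3.26 with pPGK, -0.96 with SCP1 and -1.06 with pR-Ea, so pR-Ea was past the limit there.

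The second was chr11:82746501-82747000, with 1629 reporter and 1796 input reads with pPGK, 1879 and 784 with SCP1 and 3106 and 783 with pR-Ea. Its activity was -1.40 (SE 0.17) with pPGK, 0.92 (SE 0.13) with SCP1, and with pR-Ea it was 0.55 (SE 0.08), so it was below input with pPGK and above input with the others. A member of the same neighbourhood, chr11:82744501-82745000, was at -1.01 (SE 0.10), 0.43 (SE 0.12) and 0.64 (SE 0.06). The third, chr9:113897501-113898000, held 1568 and 2178 reads with pPGK, 852 and 627 with SCP1 and 2619 and 710 with pR-Ea. Its activity was -1.73 (SE 0.12) with pPGK, 0.10 (SE 0.18) with SCP1, and with pR-Ea it was 0.44 (SE 0.08). The remaining 7 of the 10 largest gaps were 1.49 to 1.78, and in all 10 the pPGK value lay below both others by more than 1.96 SE on either side. The 10 were picked by their gap in these same values, so this separation only describes them.

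Low mapping scores were frequent in the 10 largest gaps, and less so over all members with a large gap. At least 25% of the pPGK reporter or input reads had a score under 30 in 74 of 191 members with a gap of at least 1 (38.7%). The count was 79 of 291 with a gap under 0.5 (27.1%), 272 of 805 members (33.8%) and 6878 of 30857 kept bins (22.3%). Among the 10 largest gaps described above it was 9. The exception was the bin on chromosome 4, at 6.95% of reporter and 7.58% of input reads. In the bin at chr9:113897501-113898000 those shares were 78.3% and 64.4%, and its pPGK activity was -0.84 with no score filter. The bins at chr5:102063001-102063500 and chr9:83581501-83582000 likewise stood at -1.15 and -1.07 with the filter and at -0.51 and -0.42 without it. The other 7 of the 10 were still low with no filter, at -3.07 to -1.23. With only positions that no table lists below 30, a setting chosen after seeing the data, all 10 were low, at -3.21 to -1.11. The SCP1 and pR-Ea tables hold no read under 30, so the filter acted on the pPGK tables only.

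**Figure D2:**
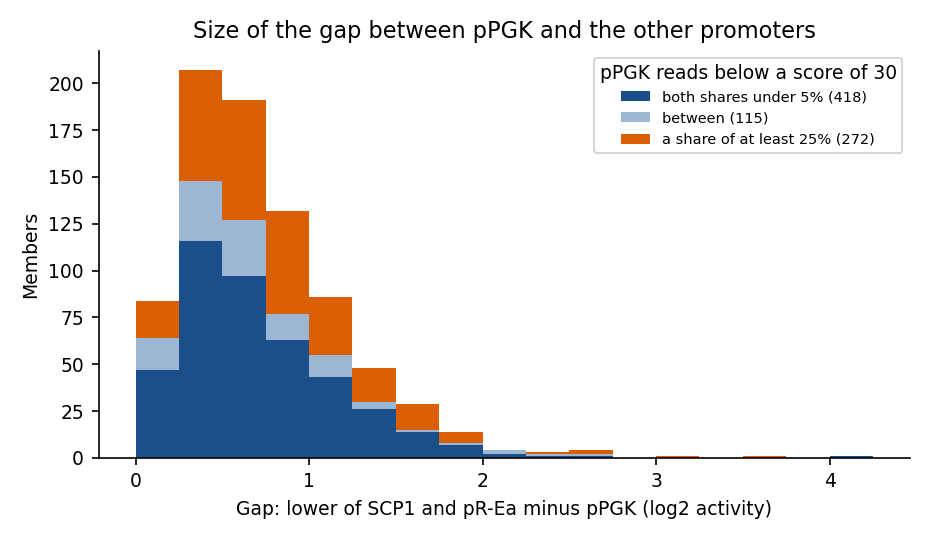
Number of members (vertical axis) by the gap between pPGK and the lower of SCP1 and pR-Ea in log2 activity (horizontal axis), coloured by the share of pPGK reads with a mapping quality score under 30. Of 805 members, 418 had under 5% of such reads in both counts and 272 had at least 25% in 1 of them; both kinds are found at small and large gaps.

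Large gaps also occurred where mapping was clean. In 418 members fewer than 5% of the pPGK reporter reads and of its input reads were below 30. Their median activities were -1.20 with pPGK, -0.59 with SCP1 and -0.31 with pR-Ea. Of them 95 had a gap of at least 1 (22.7%), against 23.7% of all members and 163 of 17312 such kept bins (0.942%). The rule raises the shares of members. Gaps in them reached 4.03, in the member with the lowest pPGK activity, which is described below. It held few pPGK reporter reads, and its SCP1 value stood at the limit. Among those with at least 200 input reads and 20 positions in each input, the 6 largest gaps were 1.13 to 1.32; these bins were named after their values were seen. The bin at chr17:81343501-81344000 led these 6, with 305 reporter and 408 input reads with pPGK, 1534 and 1544 with SCP1 and 1328 and 593 with pR-Ea. Its activity was -1.67 (SE 0.27), -0.35 (SE 0.19) and -0.28 (SE 0.14) in that order, with 0.651% of reporter and 0% of input reads below 30.

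At chr1:74818501-74819000, pPGK gave 863 reporter reads from 880 input reads, SCP1 1293 from 998 and pR-Ea 2997 from 797. The activities were -1.28 (SE 0.29), 0.03 (SE 0.22) and 0.47 (SE 0.10), so of the 3 promoters without stimulus only pPGK was below 0; in pPGK PMA_I it was -1.01 (SE 0.17). The bin at chr17:23863501-23864000 was similar, at -1.26 (SE 0.31) with pPGK, -0.02 (SE 0.19) with SCP1, and with pR-Ea it was 0.20 (SE 0.09). The other bins of the 6 were chr11:120851501-120852000 at -1.38 (SE 0.20), 0.23 (SE 0.31) and -0.19 (SE 0.09), and chr9:56924501-56925000 at -2.06 (SE 0.25), -0.92 (SE 0.26) and -0.51 (SE 0.14). The last, chr5:30657501-30658000, was at -1.83 (SE 0.33), -0.70 (SE 0.47) and 0.54 (SE 0.31), and was the only one of the 6 whose pPGK value was not below both others by 1.96 SE on either side.

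**Figure D3:**
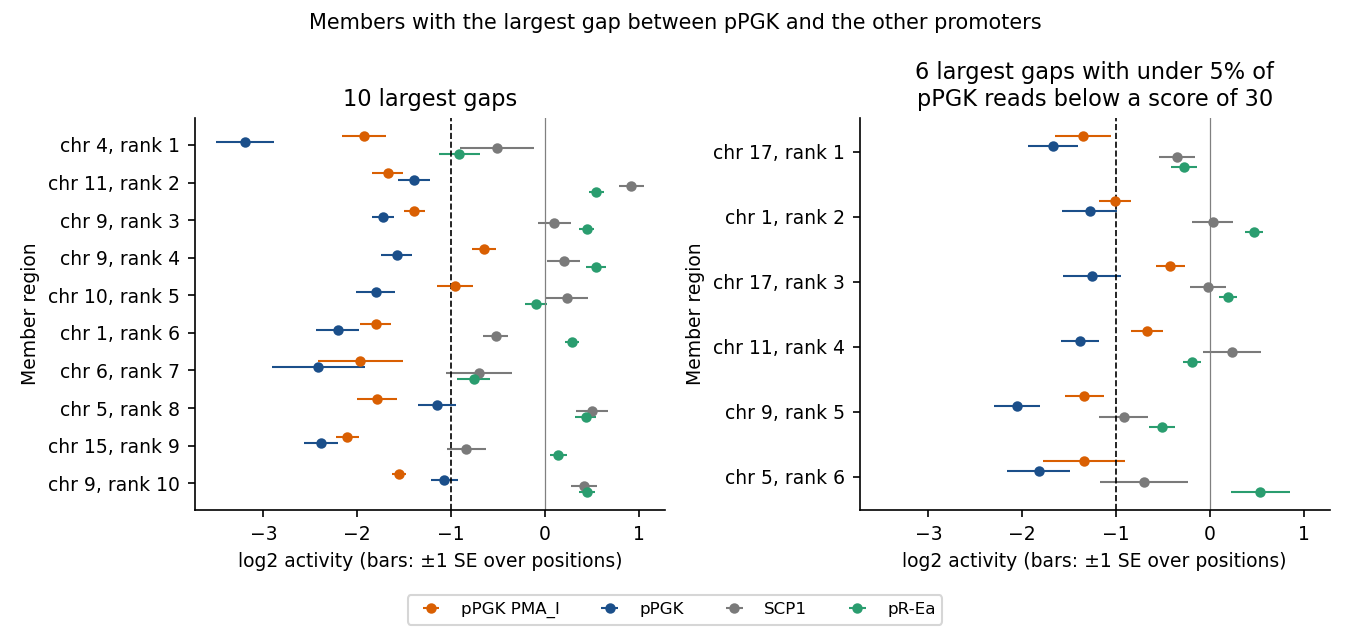
Log2 activity (horizontal axis, bars of ±1 SE over positions) in pPGK PMA_I, pPGK, SCP1 and pR-Ea for single members (rows). On the left are the 10 members with the largest gaps among those with at least 200 input reads and 20 positions per input. On the right are the 6 with the largest gaps among those of the same depth with under 5% of pPGK reads below a score of 30. In every row both SCP1 and pR-Ea lie right of pPGK, which the rule fixes for all members.

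The most deeply sequenced members had gaps on both sides of the members' median of 0.64. Among the 5 with most pPGK input, from 4237 to 8182 reads, the gap was 0.31 to 1.21. The largest of these was at chr15:82985001-82985500, with 2970 reporter and 5187 input reads and an activity of -2.06 (SE 0.13) with pPGK, -0.80 (SE 0.24) with SCP1, and with pR-Ea it was -0.85 (SE 0.08). From positions listed on the minus strand only, with 4409 pPGK input reads, activity was -2.27 with pPGK, -3.38 with SCP1 and -1.08 with pR-Ea. From those on the plus strand only, with 181 pPGK input reads, it was -0.32, 1.43 and -0.41. On the minus strand this bin was thus low with all 3 promoters. The deepest, chr16:31162501-31163000, was at -1.03 (SE 0.06), -0.14 (SE 0.14) and -0.25 (SE 0.06), with 80.3% of its pPGK reporter reads below a score of 30. The lowest pPGK activity of any member was at chr13:99278501-99279000, named after its value was seen. It held 3 reporter and 121 input reads in pPGK PMA_I and 8 and 121 with pPGK, against 68 and 107 with SCP1 and 143 and 71 with pR-Ea. The activities were -6.03 (SE 0.89), -5.02 (SE 0.82), -0.99 (SE 0.80) and -0.44 (SE 0.45), so SCP1 stood at the limit with a wide error. Depth limited many members: 73 of the 805 (9.07%) held their pPGK input reads on 5 positions or fewer, against 1509 (4.89%) of all kept bins.

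The stimulated library was not used by the rule and asks whether the members stayed low with the same promoter. Its input column is, however, the pPGK plasmid library that the rule did use, so a high input count would lower both values. In pPGK PMA_I, 355 of the 805 members (44.1%) were at least 2-fold below input, against 7.63% of all kept bins. The members' median activity there was -0.92, against 0.28 over all kept bins, which is 1.2 lower. Activity in pPGK PMA_I was below that with both SCP1 and pR-Ea in 584 members (72.5%), against 4951 kept bins (16%), a count that the rule raises because it kept SCP1 and pR-Ea above -1. In pPGK PMA_I 16 members (1.99%) were above input (activity over 0), against 65.0% of all kept bins, and the highest was at 0.51.

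How many members stayed low depended on which input reads were paired with the stimulated library. With positions that no table lists below a score of 30, which was chosen after seeing the data, 497 of 781 members (63.6%) were low in pPGK PMA_I, against 9.42% of all kept bins. Using the input column of the pPGK table for the stimulated library gave 505 of 805 (62.7%) against 10.2%. The scaling moved it too: with TMM factors 727 of 1015 members were low (71.6%, against 11.9%), and with each library's median set to 0 it was 761 of 1159 (65.7%, against 11.5%). Members with a large gap were low there more often, at 111 of the 191 with a gap of at least 1 (58.1%) and 102 of the 291 with a gap under 0.5 (35.1%). The gap is taken from the pPGK activity, and so from the input that both pPGK libraries share. Median pPGK activity was -1.65 and -1.12 in these sets, so the difference between them is partly built in. Among the 418 members with under 5% of low scores 150 were low (35.9%), against 3.24% of such kept bins. When members were chosen and scaled within such bins, a setting added after seeing the data, 259 of 428 were low (60.5%), against 6.09%. Members low in pPGK PMA_I had medians of 14.7% of pPGK reporter and 12.6% of input reads below 30, against 2.06% and 1.81% in members not low there.

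Bins low with other sets of promoters give the scale. Of 1193 bins low with all 3 promoters, 929 (77.9%) were low in pPGK PMA_I, as were 450 of 827 (54.4%) low with SCP1 and pPGK only. For bins low with pPGK and pR-Ea only it was 120 of 194 (61.9%). The shares were 85 of 2174 (3.91%) for bins low with SCP1 alone and 35 of 809 (4.33%) for bins low with pR-Ea alone. Of 24459 bins low with none of the 3, 356 (1.46%) were low there. The exact 95% binomial interval was 40.6% to 47.6% for the members and 3.13% to 4.81% for bins low with SCP1 alone, counting bins, which are not replicates. Bins low with pPGK thus had the higher shares, and a shared promoter and a shared input cannot be told apart here. Median pPGK activity ran in the same order as these shares. It was -1.23 in the members, -1.41 with SCP1 and pPGK only, -1.57 with pPGK and pR-Ea only, and -2.13 with all 3. The set of promoters and the distance past the limit thus cannot be told apart either.

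**Figure D4:**
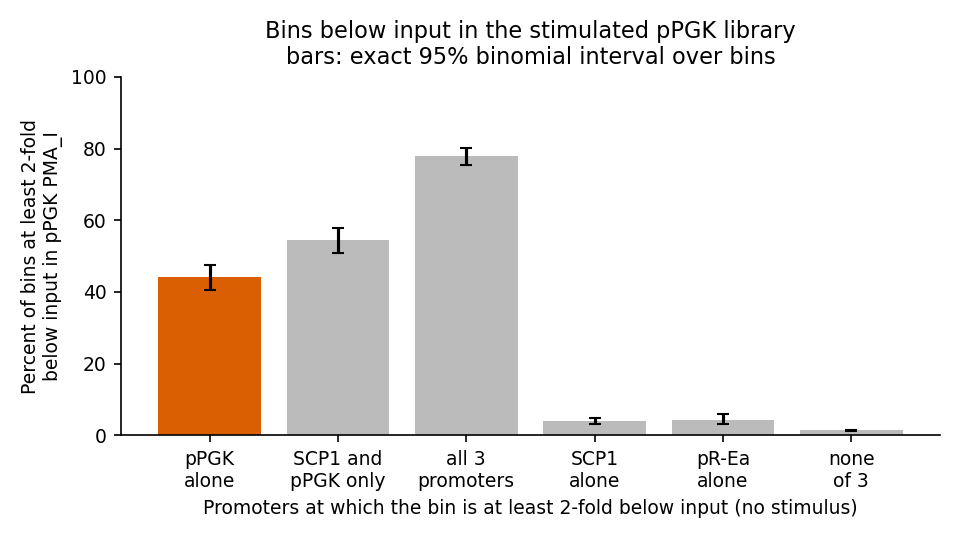
Percent of bins at least 2-fold below input in pPGK PMA_I (vertical axis, from 0, with exact 95% binomial intervals over bins) by the promoters at which a bin was low without stimulus. The members, low with pPGK alone, stand at 44.1%, between 77.9% for bins low with all 3 promoters and 1.46% for bins low with none. Median pPGK activity was -1.23 in the members and -2.13 in bins low with all 3.

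Among members with at least 200 input reads and 20 positions in each input, the highest stimulated activity was at chr10:79622001-79622500. It held 664 reporter reads in pPGK PMA_I and 273 with pPGK, both against 278 input reads, with activities of 0.15 (SE 0.15) and -1.28 (SE 0.19). The next were chr11:51163001-51163500 at -0.07 (SE 0.10) in pPGK PMA_I and -1.01 (SE 0.09) with pPGK, chr17:27160001-27160500 at -0.14 (SE 0.09) and -1.03 (SE 0.14), and chr11:5737501-5738000 at -0.15 (SE 0.18) and -1.21 (SE 0.29). Each of these 4 had a gap of 0.09 to 0.46, so SCP1 or pR-Ea was within 0.46 of pPGK. At the other end, chr1:185441501-185442000 was at -2.55 (SE 0.27) in pPGK PMA_I and -1.22 (SE 0.20) with pPGK, and chr2:65633501-65634000 at -2.34 (SE 0.11) and -1.16 (SE 0.13).

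In those lowest bins the input counts differ between the tables of the same plasmids. The bin at chr16:31162501-31163000 held 12460 reporter and 31290 input reads in the pPGK PMA_I table, against 9569 and 8182 in the pPGK table. Its activity was -2.43 (SE 0.09) in pPGK PMA_I and -1.03 (SE 0.06) with pPGK, while its ratio of reporter reads between them was only 0.17 on the log2 scale. In all 4 of the members lowest in pPGK PMA_I, at least 25% of pPGK reads were below a score of 30.

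By reporter reads alone, 36 members were at least 2-fold higher in pPGK PMA_I than with pPGK and 4 were lower. A call required an exact 95% counting interval that excluded equality. Over all bins tested 1.24% were higher and 0.653% lower. The pPGK reporter count helped to choose the members, so a rise is partly built in and nothing is read from this count. The largest rise among members with at least 200 input reads and 20 positions in each input was at chr10:77316001-77316500, named after its value was seen, with 539 against 151 reads, a log2 ratio of 1.62 (95% interval 1.37 to 1.90). There 75.9% of the pPGK reporter reads were below a score of 30. Among members with under 5% of low scores the largest rise was at chr11:99955501-99956000, likewise named after its value was seen, with 361 reads in pPGK PMA_I against 106 with pPGK. The log2 ratio, scaled to the library totals, was 1.55 (95% interval 1.24 to 1.89), and activity was 0.30 (SE 0.22) in pPGK PMA_I and -1.23 (SE 0.36) with pPGK. By activity, 648 members (80.5%) were higher in pPGK PMA_I than with pPGK, against 78.2% of all kept bins, with a median difference of 0.40 against 0.28.

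The strands of a member often disagreed with pPGK. Each listed read carries a strand, and positions listed on 1 strand only allow the activity of each strand to be measured apart. Whether this strand is the orientation of the insert in the plasmid is not given in the sources used here. Of 448 members with at least 20 pPGK input reads on each strand, 118 (26.3%) were low on both, against 2.74% of kept bins, a share that the rule itself raises. In 329 of the 448 members only 1 strand was low, the plus strand in 173 and the minus strand in 156. Over all kept bins this was so in 4688 of 23341. It was 328 of 496 in bins low with SCP1 and pPGK only, and 274 of 593 in bins low with all 3 promoters. The rule raises this count too, since only 1 member had neither strand low. The median difference between strands was 1.03 with pPGK and 0.75 in pPGK PMA_I, against 0.23 with SCP1 and 0.13 with pR-Ea. Over all kept bins the same medians were 0.63, 0.58, 0.17 and 0.11, so the pPGK libraries had wider strand differences at large. With pPGK the median was 1.11 in bins low with SCP1 and pPGK only and 1.02 in bins low with all 3 promoters. A split of this size was thus not particular to the members.

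Single members show the size of this split. At chr17:81343501-81344000 the pPGK activity was -2.81 on the plus strand, from 348 input reads, and 0.36 on the minus strand, from 60. At chr1:74818501-74819000 it was -2.02 on the minus strand, from 771 input reads, and 0.63 on the plus strand, from 109. At chr17:23863501-23864000 it was -2.05 on the minus strand, from 480 input reads, and 0.76 on the plus strand, from 65. In each case the strand with more plasmid reads was the low one. This held in 322 of 446 members with unequal input (72.2%), in 412 of 593 bins low with all 3 promoters (69.5%) and in 11746 of 23209 kept bins (50.6%). Choosing bins by a low pooled ratio itself raises this share, since the strand with more input weighs more in it. The larger strand held a median of 70.0% of the members' pPGK input and 66.5% of their pPGK reporter reads, and 55.6% of their SCP1 input.

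The strand that was low with pPGK was mostly the low one under stimulation too. Of 231 members whose strands differed by at least 1, the same strand was lower in pPGK PMA_I in 223 (96.5%), against 97.3% of such kept bins. Those 2 libraries share their plasmids and their input. With SCP1 the same strand was lower in 132 of 225 (58.7%, against 57.6% of kept bins) and with pR-Ea in 128 of 220 (58.2%, against 53.7%). Members thus shared this pattern with other bins whose strands differed.

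**Figure D5:**
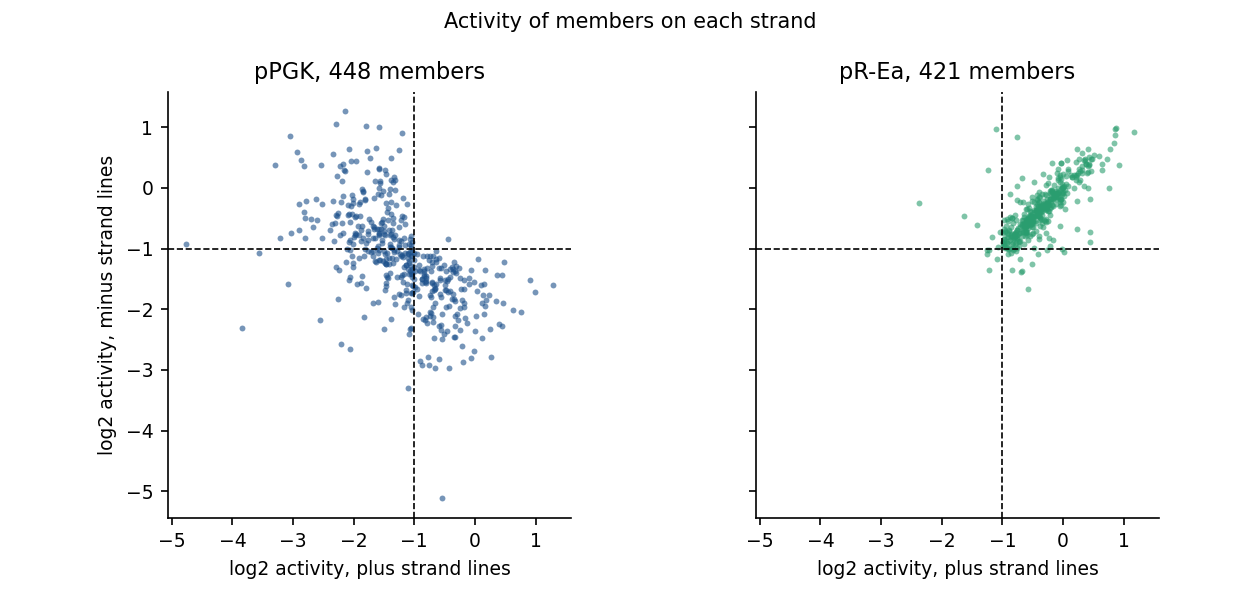
Log2 activity from plus strand lines (horizontal axis) and minus strand lines (vertical axis), each point a member with at least 20 input reads on each strand, for pPGK (left) and pR-Ea (right), with the 2-fold limits dashed. With pPGK 329 of 448 members are past the limit on only 1 strand (4688 of 23341 kept bins), while the pR-Ea points lie along the diagonal. The rule leaves few pPGK points above the limit on both strands.

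Bins beside a member measure the same stretch with other reads, though their fragments overlap it. There were 492 kept bins that touched a member without being one. Their median activity was -0.31 in pPGK PMA_I, -0.46 with pPGK, -0.54 with SCP1 and -0.24 with pR-Ea. In kept bins with any kept neighbour it was 0.14, 0.01, -0.14 and -0.01. Of the touching bins 93 (18.9%) were low with pPGK, against 9.78% of all kept bins and 7.37% of those that are no members, 143 (29.1%) with SCP1 against 14.9%, and 53 (10.8%) with pR-Ea against 8.4%. The pPGK value was below both others in 165 of them (33.5%), against 6263 of 30052 kept bins that are no members (20.8%). Members that touch a member, 73 in all, are left out of the touching bins, which lowers the pPGK shares there. The median gap was -0.18 in touching bins and -0.39 in all kept bins. In pPGK PMA_I 99 (20.1%) were low, against 7.63%. Low values were thus more frequent beside members than in kept bins at large in all 4 libraries.

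Members were spread over the genome. They formed 766 separate stretches, of which 34 held 2 or more touching members. Members had 1 or 2 kept neighbours more often than bins at large, at 54.9% and 8.20% against 47.1% and 5.47%. By chromosome they made up between 1.96% of kept bins on chromosome 14 and 3.72% on chromosome 15, among chromosomes with many kept bins. Chromosome 11 held most, at 65. The longest stretch was 7 touching bins, chr8:12131001-12134500. Its members had a median activity of -1.90 in pPGK PMA_I, -1.33 with pPGK, -0.89 with SCP1 and -0.43 with pR-Ea. Reads below a score of 30 made up a median of 79.8% of its pPGK reporter and 83.9% of its input reads. No gene names or base sequences are given, since no mm9 genome or annotation was used here.

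Plasmid input also moved with the choice of members. The pPGK input share of the median member was 0.24 higher on the log2 scale than its SCP1 input share, against -0.05 over all kept bins. In the 418 members with under 5% of low scores it was -0.35, against -0.42 over such kept bins. Over all members the difference from the pR-Ea input share was -0.11, against -0.07. The reporter share of the median member was 0.54 lower than with SCP1 and 1.01 lower than with pR-Ea, on the same scale (-0.54 and -1.01), against 0.15 and 0.03 over all kept bins. Members low in pPGK PMA_I had a pPGK input share 0.63 above that of SCP1, and members not low there 0.06. Their reporter shares against SCP1 were -0.26 and -0.67. Against pR-Ea the difference over all members thus lay in the reporter share, and against SCP1 in both shares. Set against all kept bins, the input share differed more from SCP1 in members low in pPGK PMA_I, and the reporter share in the others. The rule used these counts, so the shares only describe the members.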

How the data were processed

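The deposited tables list, on lines nearly all 315 bp long, raw counts per 5′ end position in columns 7 and 8. Column 5 of the deposited tables was read, from its values, as a mapping quality score. The tools named in the submitters' processing notes are bedtools 2.28.0, SAMtools and Bowtie2, and the build is mm9; the order of steps is not given in the sources used here. Column 7 was read as reporter and column 8 as input, which no label states. A 5′ end on both strands was listed on 2 lines with equal counts and was counted once, on its first line; lines with a score under 30 were dropped first. Reads were placed by fragment midpoint in 500 bp bins. Members and lists were chosen with earlier results of these data known. Regions were named by rule among members with 200 input reads and 20 positions per input: the 10 largest gaps, the 5 deepest, the 4 highest and 4 lowest in pPGK PMA_I, and 3 on each side of the limit; exceptions are stated. Intervals are exact (Clopper-Pearson). SE is the linearised error of the ratio over positions. It was tested on simulated bins of a single size, with more positions than the 22 with pPGK input in the median member. How well it holds at few positions was not tested. Planned searches for repeats and motifs need an mm9 genome and were not run. Other scalings, read minima, limits, inputs and placements were tried, 5 of them chosen after seeing the data. Python 3.11.15, pandas 2.3.3, scipy 1.17.1 and, for 1 alternative, edgeR 4.0.16 were used.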

Additional observations from a re-analysis of the deposited data

Results flagged for a closer look

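A few members were at least 2-fold above input with another promoter while below it with pPGK, a difference between promoters that was not tested. There were 8 such members with SCP1 and 3 with pR-Ea. These are 0.994% and 0.373% of the members, below the 3.78% and 0.859% of all kept bins. The most deeply read was chr15:102301001-102301500, with 2464 reporter and 2120 input reads with pPGK, 11628 and 2503 with SCP1 and 3610 and 2551 with pR-Ea. Its activity was -1.04 (SE 0.45) with pPGK, 1.87 (SE 0.15) with SCP1, and with pR-Ea it was -0.94 (SE 0.08), so pR-Ea was close to the limit too. At chr15:76009001-76009500 activity was -1.71 (SE 1.28) with pPGK and 1.70 (SE 0.42) with SCP1, but its 62 pPGK input reads came from 2 positions. With pR-Ea the largest was chr19:25073501-25074000, at -1.20 with pPGK and 1.25 (SE 0.17) with pR-Ea, where all pPGK reads came from 1 position and no SE can be given.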

How the results depend on the processing

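No paired analysis was possible because each group had 1 library, and for the same reason no replicate could be left out. The count of 805 members became 11592 with at least 1 input read per input, 255 with at least 200, 412 with a 3-fold limit, 134 with distinct positions counted and 428 within bins with under 5% of low scores (added after seeing the data). The 355 members low in pPGK PMA_I became 761 with library medians set to 0, 727 with TMM factors, 6314 with at least 1 input read, 101 with at least 200, 173 at 3-fold and 25 by positions. Their median activity there, -0.92, was -1.17 with medians set to 0, -1.25 with TMM, -1.13 with at least 1 input read, -0.86 with at least 200, -0.52 at 1.5-fold, -1.48 at 3-fold and -1.14 with the pPGK table's input. It was -0.87 with no score filter, -0.82 with every line counted, -0.66 by positions, -1.15 with positions below 30 in no table and -1.10 within bins with under 5% of low scores (the last 2 added after seeing the data). The 36 members higher in pPGK PMA_I became 643 with at least 1 input read, 4 with at least 200, 96 with no score filter, 4 by positions, 16 without each bin's top position and 14 within bins with under 5% of low scores. The neighbours' median pPGK activity, -0.46, was -0.13 with at least 1 input read, -0.61 with at least 200, -0.18 at 1.5-fold, -0.93 at 3-fold and -0.59 with no score filter. The 118 members low on both strands became 189 with at least 1 input read, 38 with at least 200, 33 at 3-fold, 64 with no score filter, 0 by positions, 55 without the top position and 74 within bins with under 5% of low scores. By positions, pPGK activity changed sign to 0.084 at chr10:79622001-79622500, 0.13 at chr14:63796501-63797000 and 0.38 at chr12:106270501-106271000. Other limits and scalings choose other bins by construction; the cause of the remaining shifts was not tested.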
